A study of Mus musculus with 2 samples.

Results

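Receptors of the myeloid cell surface that belong to the C-type lectin, Fc gamma, CD300, leukocyte immunoglobulin-like, TREM and Siglec families were followed through induced loss of Cebpa in mouse bone marrow progenitors. Members were the rows of the deposited gene table whose single symbol belongs to one of these families by name, together with Cd33, Cd22, Pilra, Pilrb1, Sirpa, Mrc1, Msr1 and the adaptor Tyrobp. This gave 68 genes of 23309 rows. The rule uses names alone, but it was written with earlier results of these data known.

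The cells were lineage-depleted bone marrow progenitors of Cebpaf/f;CreER mice, transduced with the retroviruses MIGR1-HA-Hoxa9 and MIGR1-Flag-Meis1 and cultured with IL3. One group received EtOH, the vehicle, and the other 5 nM 4OHT, the ligand that activates CreER, each for 72 h. Both groups carry the floxed alleles, CreER and both retroviruses, so effects of 4OHT or of Cre activity cannot be told apart from those of Cebpa loss. Each group is 1 deposited sample that joins 2 replicates, with 1 FPKM value per gene (fragment counts corrected for transcript length and for sequencing depth), and the labels do not state the animals' age. No spread between replicates can therefore be shown. A gene is said to have risen or fallen where its q is under 0.05 in the authors' deposited table, where q is a p-value adjusted over all tested rows.

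These receptors sense sugars, antibodies, lipids and sialic acids and set how readily a myeloid cell responds. Activating members mostly lack signalling motifs of their own and associate with the adaptor DAP12 (Tyrobp) or the Fc receptor gamma chain (Fcer1g), whose immunoreceptor tyrosine-based activation motifs (ITAMs) recruit the kinase Syk. Inhibitory members mostly carry inhibitory motifs (ITIMs) in their own tails, which recruit phosphatases such as SHP-1 and SHP-2. Many of the families exist as paired receptors, in which activating and inhibitory relatives are encoded side by side.

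After 4OHT, 9 receptor genes fell and 2 rose among the 40 that the authors tested. The falls were Cd33, Sirpa, Fcgr4, Fcgr3, Clec7a, Clec5a, Cd300lb, Trem3 and Trem1, and the rises were Siglec5 and Mrc1. The falls were 1.43-fold (Fcgr3) to 2.61-fold (Fcgr4). Over all 11953 tested rows 3.11% fell, 2.8% rose and 5.91% were called in either direction. Among the tested receptor genes the shares were 22.5% fallen, 5% risen and 27.5% in either direction, so the share of falls exceeded the background, while 2 rises give a share near it. The other 29 tested genes did not pass. Higher and lower values nearly balanced: the median log2((4OHT FPKM + 1)/(vehicle FPKM + 1)) of the 40 tested members was 0.05, beside 0.00 over all tested rows. Of these members 22 were above and 18 below their vehicle level. Such a median of signed ratios does not give the size of change of a typical gene. The summed level of all 68 genes was 1026 FPKM with vehicle and 925 FPKM with 4OHT.

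**Figure D1:**
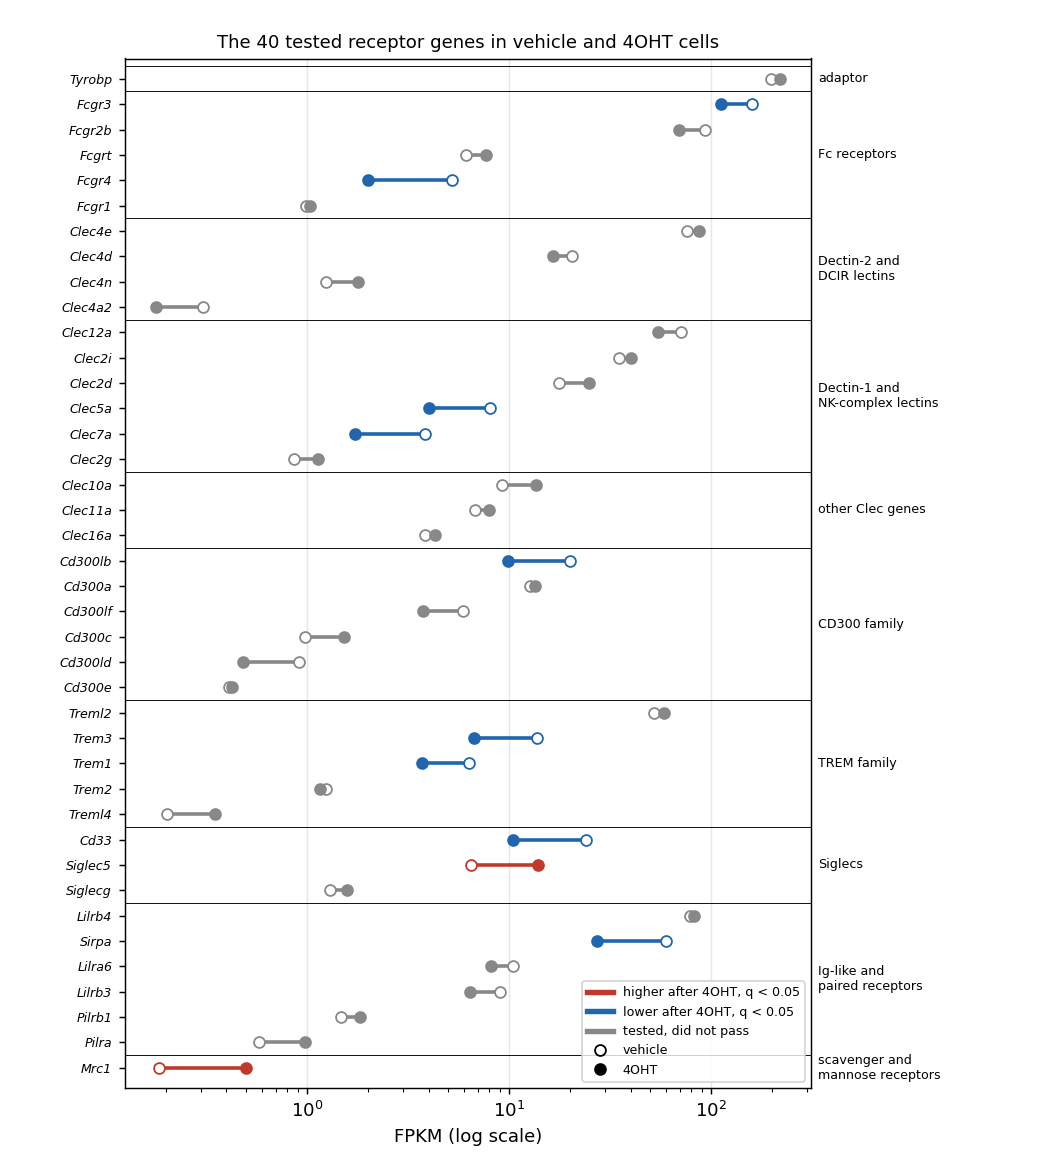
FPKM (log axis) of the 40 tested receptor genes in vehicle cells (open circles) and after 4OHT (filled circles), 1 value per condition, grouped by family; blue and red mark genes with q under 0.05 in the authors' deposited table that were lower or higher after 4OHT, and grey marks the others. The 9 blue genes are spread over 6 of the 10 groups, and the longest blue bar is that of Fcgr4, from 5.22 to 2.00 FPKM.

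Of the 68 members, 28 were not tested by the authors. Each of these was below 0.21 FPKM in both conditions, with 0.206 FPKM for Clec3b the highest, and 5 were listed at 0 in both. Of the 40 tested members 34 had 1 FPKM or more in at least one condition and 6 did not. In these bulk samples, fewer cells of a type and less RNA per cell cannot be told apart. Cebpa itself, the targeted gene, had 109 FPKM with vehicle and 42.8 FPKM with 4OHT, so 39.2% of its level remained.

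The labelled cell type was checked against markers. Ptprc, the pan-leukocyte antigen CD45, had 42.7 and 41.2 FPKM in vehicle and 4OHT cells, and Mpo, the peroxidase of early granulocytes, had 496 and 603 FPKM, and neither passed. The other 3 of the 5 progenitor markers were called. Cd34, a surface antigen of blood progenitors, rose from 284 to 493 FPKM, and Kit, the stem cell factor receptor, rose from 20.1 to 32.8 FPKM. Elane, the elastase gene of early granulocytes, fell from 752 to 385 FPKM. Flt3, a cytokine receptor listed here among dendritic cell markers, rose from 10.3 to 23.1 FPKM, and Itga2b, listed among platelet markers, from 40.3 to 88.8 FPKM. Each of these 5 had q = 0.00165 in the authors' deposited table. Of the other tested genes on the dendritic cell and platelet lists, Itgax had a higher value after 4OHT and Batf3 and Pf4 lower ones. None of them passed, and Zbtb46, Xcr1 and Gp1bb were not tested. The B cell genes Pax5 and Ms4a1 and the T cell gene Cd3e were listed at 0 in both. Macrophage markers were mixed, since Emr1 (F4/80) had 147 and 129 FPKM, whereas Mertk and C1qa were below 0.12 FPKM. Of 4 tested macrophage markers 1 fell and none rose, and the 6 listed summed to 185 FPKM with vehicle and 155 FPKM with 4OHT. The 6 neutrophil markers summed to 19.9 and 5.54 FPKM, and 2 of the 3 tested fell. These were S100a8, from 10.2 to 1.67 FPKM, and S100a9, from 8.86 to 2.92 FPKM, which made up most of the sum. Ngp, at 0.673 and 0.676 FPKM, did not pass. Camp, listed at 0 with vehicle and 0.177 FPKM with 4OHT, was not tested, nor were Ltf and Mmp9. Of 4 tested mast cell and basophil markers 2 rose, Cpa3 and Kit, and the 5 listed summed to 651 FPKM and 1077 FPKM. Most of that sum was Cpa3, with 562 and 975 FPKM, and Kit is also counted among the progenitor markers. Mcpt8, at 61.2 and 61.0 FPKM, and Ms4a2, at 7.07 and 8.94 FPKM, did not pass, and Fcer1a was not tested. The part of such marker shifts in the receptor changes was not tested.

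The adaptor that serves many of the activating receptors was the most abundant member. Tyrobp, which encodes DAP12, had 198 FPKM with vehicle and 219 FPKM with 4OHT, and the authors' deposited table gives it q = 1.00. It thus stood at 111% of its vehicle level without passing, while several receptors that signal through it fell.

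Among the 5 Fc receptor genes, which bind the constant part of IgG, 2 fell, none rose and 3 did not pass. Fcgr3, the activating low-affinity receptor CD16 that pairs with the Fc receptor gamma chain, fell from 160 to 112 FPKM. Its fold was 1.43 and its q 0.0293 in the authors' deposited table, the weakest of the 9 falls. Fcgr4, an activating receptor of intermediate affinity for certain IgG subclasses, fell from 5.22 to 2.00 FPKM. That is a 2.61-fold fall, and the authors' deposited table gives it q = 0.00165, the smallest q it holds and one shared by 363 rows.

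The inhibitory Fc receptor had values in the same direction that did not pass. Fcgr2b, which carries an ITIM, had 93.4 FPKM with vehicle and 69.8 FPKM with 4OHT, and the authors' deposited table gives it q = 0.129. Fcgr2b and Fcgr3 share much of their extracellular sequence, and how reads matching both were assigned was not stated. Summed with Fcgr4, their neighbour, they had 259 FPKM with vehicle and 184 FPKM with 4OHT. Fcgr1, the high-affinity receptor CD64, had 0.994 and 1.03 FPKM. Fcgrt, the neonatal Fc receptor, which salvages IgG inside cells and resembles MHC class I, had 6.14 and 7.67 FPKM. Neither passed, and unlike Fcgr2b, Fcgr3 and Fcgr4 both had the higher value after 4OHT.

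The Dectin-2 and DCIR lectins held no called gene. Of 11 members named Clec4, 9 are encoded side by side on chromosome 6, and 4 were tested. Clec4e, which encodes Mincle, a sensor of mycobacterial and fungal glycolipids, was the most abundant gene named Clec, at 76.3 FPKM with vehicle and 86.9 FPKM with 4OHT. Clec4d, its partner MCL, had 20.5 and 16.5 FPKM. These partners thus differed in the direction of their values, and neither passed. Clec4n, the gene of Dectin-2, which binds fungal mannans, had 1.24 and 1.80 FPKM. Clec4a2, the inhibitory receptor DCIR, had 0.305 and 0.179 FPKM. The 7 other Clec4 genes were at most 0.114 FPKM.

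In the Dectin-1 and NK-complex lectins, 2 of 6 tested genes fell and none rose. Clec7a encodes Dectin-1, the receptor for fungal beta-glucan, which signals through a single ITAM-like motif of its own. It fell from 3.86 to 1.73 FPKM, a 2.23-fold change. Clec5a encodes MDL-1, a DAP12-coupled activating lectin of monocytes and neutrophils, and fell from 8.01 to 4.04 FPKM, 1.98-fold. Both had q = 0.00165 in the authors' deposited table.

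The other tested genes of that group did not pass. Clec12a, an inhibitory lectin of myeloid cells that recognises uric acid crystals, had 71.2 FPKM with vehicle and 54.7 FPKM with 4OHT, and the authors' deposited table gives it q = 0.196. Clec2 genes encode lectins related to NK cell receptors, some of them ligands of such receptors, and the 3 tested had the higher value after 4OHT. Clec2d had 17.7 and 25.0 FPKM, with q = 0.113 in the same authors' deposited table. Clec2i had 35.2 and 40.2 FPKM and Clec2g 0.863 and 1.13 FPKM. The locus of Clec2i overlaps that of the row BC035044, with 85.9 and 86.5 FPKM, so reads of the pair may not be separable. The 7 untested members, among them the dendritic cell lectin Clec9a and the platelet lectin Clec1b, were at most 0.0327 FPKM.

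Of the remaining genes named Clec, 3 were tested and none passed. Clec10a, the macrophage galactose lectin MGL1, had 9.23 FPKM with vehicle and 13.7 FPKM with 4OHT, and the authors' deposited table gives it q = 0.0605, the smallest q above the threshold among the receptor genes. Clec11a, a secreted growth factor for blood progenitors, had 6.78 and 7.93 FPKM. Clec16a, which despite its name is an intracellular regulator of endosomes and mitophagy, had 3.83 and 4.29 FPKM.

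In the CD300 family, several of whose members bind lipids of dying cells, 1 of 6 tested genes fell and none rose. Cd300lb, a DAP12-coupled activating member, was the most abundant in vehicle cells and fell from 20.2 to 9.90 FPKM, 2.04-fold, and the authors' deposited table gives it q = 0.00165. The inhibitory neighbour Cd300a, at 12.7 and 13.5 FPKM, did not pass. The order of these neighbours was thereby exchanged, with Cd300lb above Cd300a in vehicle cells and below it after 4OHT.

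The other CD300 genes did not pass. Cd300lf, an inhibitory member, had 5.94 FPKM with vehicle and 3.74 FPKM with 4OHT. Its locus overlaps Rab37, a small GTPase gene of vesicle traffic, which rose from 16.6 to 32.5 FPKM, so the overlapping rows had opposite directions. Cd300ld had 0.912 and 0.483 FPKM, and the authors' deposited table gives it q = 0.152. Cd300c had 0.983 and 1.52 FPKM, and Cd300e 0.411 and 0.428 FPKM. Cd300lg and Cd300lh were at most 0.0625 FPKM.

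In the TREM family 2 of 5 tested genes fell and none rose. Trem1, a DAP12-coupled receptor that amplifies inflammatory responses of neutrophils and monocytes, fell from 6.32 to 3.72 FPKM, 1.70-fold, and the authors' deposited table gives it q = 0.00698. Trem3, another DAP12-coupled member next to it, fell from 13.7 to 6.70 FPKM, 2.05-fold, with q = 0.00165 in that table of the authors. Treml2, the most abundant member, had 52.1 FPKM with vehicle and 58.8 FPKM with 4OHT. Trem2, a DAP12-coupled lipid receptor of macrophages and microglia, had 1.24 and 1.16 FPKM. Treml4 had 0.203 and 0.353 FPKM, and the platelet gene Treml1 was listed at 0 in vehicle cells and at 0.198 FPKM after 4OHT, where it was not tested.

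The Siglecs, lectins that read sialic acid on the cell's own surface, held calls in both directions. Of 3 tested genes 1 fell and 1 rose. Cd33, a classical marker of myeloid cells, fell from 24.2 to 10.5 FPKM, 2.31-fold, and was the gene with the second largest fold among the falls. Siglec5, an older symbol of Siglecf, an inhibitory Siglec known from eosinophils, rose from 6.49 to 13.9 FPKM, 2.14-fold. Both had q = 0.00165 in the authors' deposited table. In vehicle cells Cd33 was the more abundant of the pair, and after 4OHT Siglec5 was.

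Markers of eosinophils were present beside Siglec5. Prg2, the major basic protein, had 15.6 and 19.6 FPKM, Epx, eosinophil peroxidase, 1.29 and 2.04 FPKM, and Prg3 1.91 and 3.42 FPKM. None of these 3 passed, and Ccr3 and Il5ra were at most 0.130 FPKM. The 5 markers summed to 18.9 FPKM with vehicle and 25.2 FPKM with 4OHT, and their part in the rise of Siglec5 was not tested. Siglecg, an inhibitory Siglec of B cells, had 1.30 and 1.59 FPKM and did not pass. Cd22, Siglec1, Siglec15, Siglece and Siglech were at most 0.146 FPKM and were not tested.

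Among the leukocyte immunoglobulin-like and paired receptors, 1 of 6 tested genes fell and none rose. Sirpa encodes an inhibitory receptor that binds CD47, the signal by which cells avoid being engulfed. It fell from 59.7 to 27.4 FPKM, 2.18-fold, and the authors' deposited table gives it q = 0.00165. In FPKM this was the largest loss after that of Fcgr3 among the 9 falls. Its ligand Cd47, at 202 and 182 FPKM, did not pass.

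The other genes of that group kept closer to their vehicle level. Lilrb4, the inhibitory receptor gp49B, had 78.5 FPKM with vehicle and 82.0 FPKM with 4OHT. Lilrb3, whose RefSeq symbol is Pirb, encodes the inhibitory receptor PIR-B that binds MHC class I, and had 9.03 and 6.38 FPKM, and the authors' deposited table gives it q = 0.136. Lilra6, an activating PIR-A relative, had 10.5 and 8.19 FPKM. The locus of Lilra6 spans 6 other rows of near-identical Pira copies, among them Pira2 with 10.01 and 7.98 FPKM, so reads of single copies are uncertain. The inhibitory Pilra had 0.577 and 0.983 FPKM, the activating Pilrb1 had 1.47 and 1.84 FPKM, and Lilra5 was listed at 0 in both. The locus of Pilra overlaps that of the row Zcwpw1, which had 0.256 and 0.757 FPKM and did not pass. Reads of Pilra and Zcwpw1 may therefore not be separable.

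Mrc1, the macrophage mannose receptor CD206, rose from 0.185 to 0.499 FPKM, and the authors' deposited table gives it q = 0.00310. Its ratio of 2.70 is one of 2 values below 1 FPKM, and with the pseudocount of 1 its log2 ratio was 0.34, the smallest in size of the 11 called receptor genes. Msr1, the scavenger receptor A, had 0.0945 and 0.124 FPKM and was not tested.

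**Figure D2:**
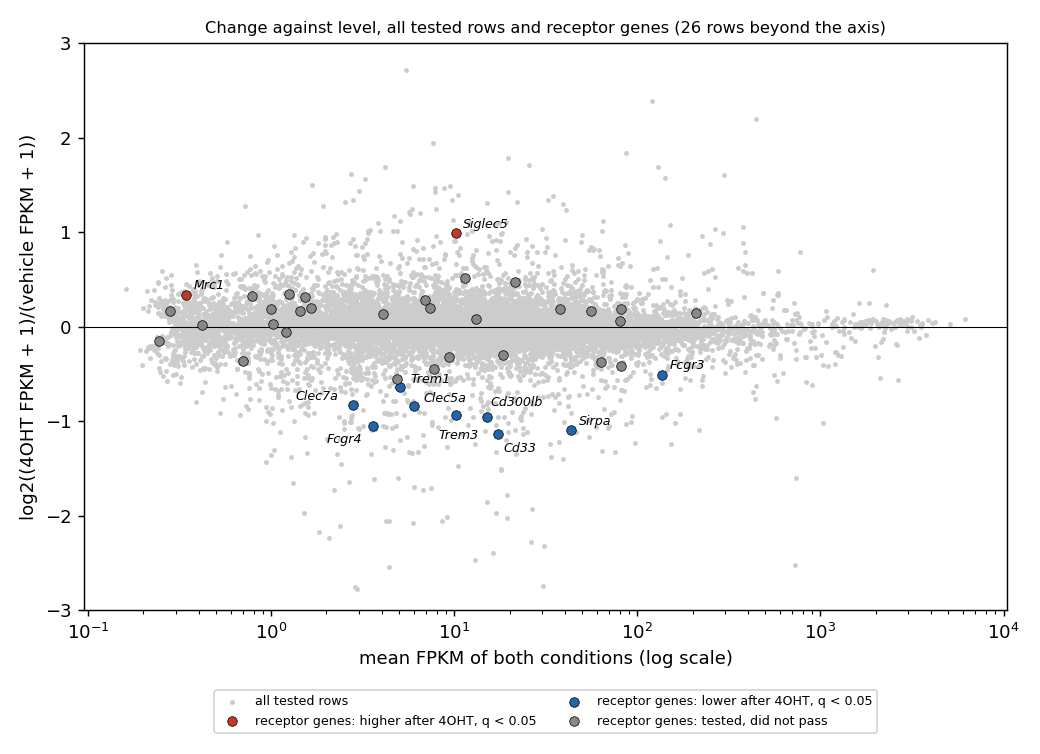
Change after 4OHT, as log2((4OHT FPKM + 1)/(vehicle FPKM + 1)), against mean FPKM of both conditions (log axis) for all tested rows (light grey) and the 40 tested receptor genes (larger points, coloured by call in the authors' deposited table). The 9 blue points lie between -0.51 (Fcgr3) and -1.14 (Cd33), and 26 rows outside the axis range are not drawn.

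The table holds no read counts, so depth is unknown, and the size of change that passed serves as a guide to precision. Among all rows with 5 to 20 FPKM in the higher condition, the smallest change that was called was 1.41-fold and the median called change 1.80-fold. Of the 12 receptor genes tested there 4 fell and 1 rose, while 5.36% of all tested rows at that level were called in either direction. Changes above the smallest called one did not always pass, as with Cd300lf at 1.59-fold and Clec10a at 1.48-fold. Between 20 and 100 FPKM the smallest called change was 1.39-fold. At that level 3 of 11 receptor genes fell and none rose, beside 4.73% of all tested rows called in either direction. Below 1 FPKM the smallest called change was 1.71-fold, and 1 of 6 receptor genes was called, beside 7.15% of all tested rows there. At such levels a 1.89-fold lower value of Cd300ld and a 1.70-fold higher value of Pilra did not pass.

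Calls were compared between activating and inhibitory receptors as textbook knowledge classes them, a grouping made after the values were seen. Of 15 tested activating receptors, 7 fell and none rose. They were Fcgr3, Fcgr4, Clec5a, Clec7a, Cd300lb, Trem1 and Trem3. Of 11 tested inhibitory receptors 1 fell, Sirpa, and 1 rose, Siglec5. Cd33 was left out because its signalling in mice is not settled. Other tested genes were also left unclassed. Among them were Cd300c, Cd300e and Cd300ld, which did not pass, and Mrc1, which rose. The share of each class therefore depends on these choices. The shares were 46.7% and 9.09% fallen, beside 3.11% of all tested rows, and the difference between the classes was not tested. The summed level of the activating receptors was 330 FPKM with vehicle and 258 FPKM with 4OHT, or 78.2% of vehicle, and that of the inhibitory receptors was 339 and 274 FPKM, or 80.8%. The gene with the largest loss in FPKM was Fcgr3 among the activating and Sirpa among the inhibitory receptors, followed in the latter by Fcgr2b and Clec12a, which did not pass.

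Most of these genes lie in clusters, defined here as members within 1000000 bases of the next on mm9. On chromosome 1 (172890689 to 172989534) the 3 neighbours Fcgr2b, Fcgr4 and Fcgr3 all had lower values after 4OHT. On chromosome 17 (48371903 to 48506471) the adjacent genes Trem1 and Trem3 fell, whereas Treml4 and Treml2, next in order, had higher values that did not pass. On chromosome 11 (114751355 to 115023554) Cd300lb fell between Cd300a and Cd300c, neither of which passed. On chromosome 7 (50606711 to 52359192) Siglec5 rose, while Cd33, separated from it by Siglecg alone among the members, fell. On chromosome 6 Clec7a was the only gene called among 11 members of the NK-complex region (128612403 to 129422795), and none was called among the 9 of the Dectin-2 region (122871866 to 123239889). Members are set by name, so other receptor genes there are not counted. Olr1, which is not a member, lies beyond Clec7a (129435266 to 129457183) and also fell. Cd69 and Klrb1f, non-members inside the NK-complex region, did not pass.

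**Figure D3:**
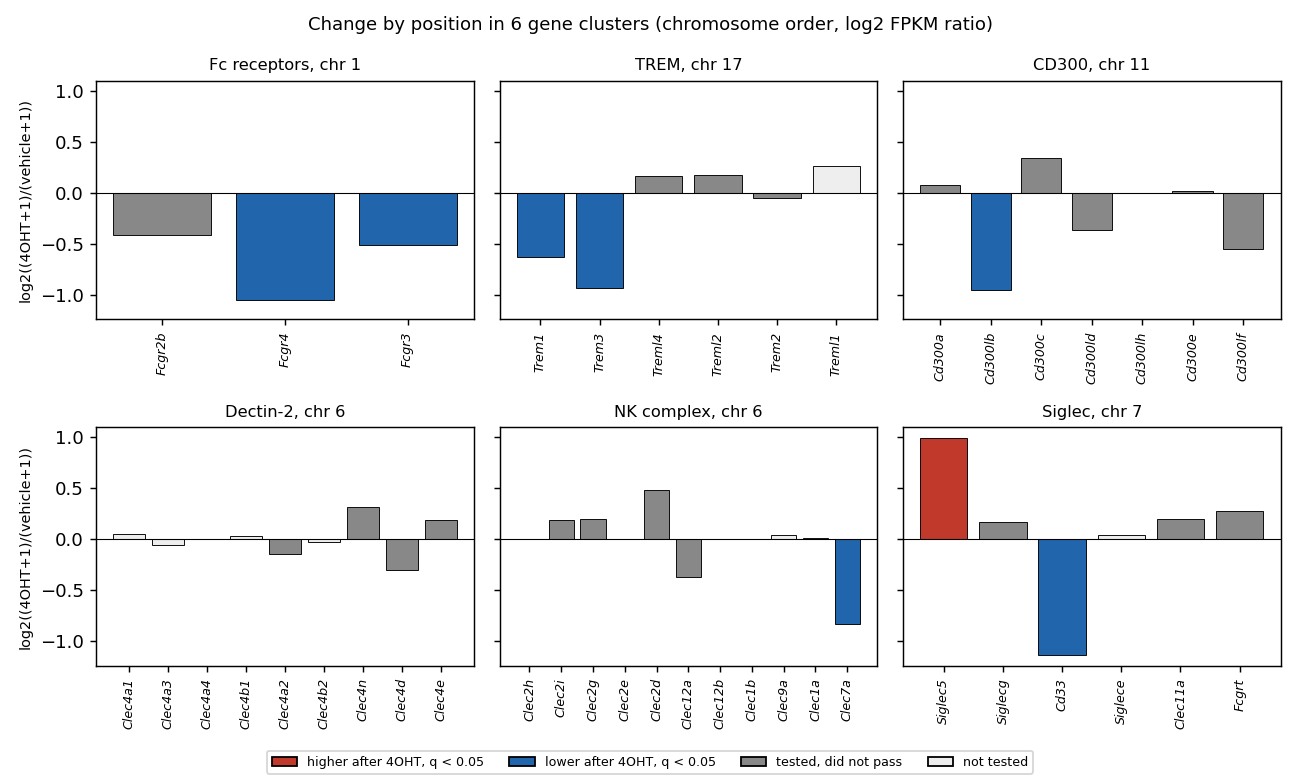
Change after 4OHT, as log2((4OHT FPKM + 1)/(vehicle FPKM + 1)), for members of 6 gene clusters in chromosome order, with 1 value per condition; blue and red bars mark genes called lower or higher in the authors' deposited table, dark grey bars tested genes that did not pass and pale bars genes not tested. Every bar of the Fc receptor cluster points down, while in the TREM, CD300 and Siglec clusters some neighbours of a called gene point the other way.

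Promoter sequences were examined because C/EBP factors and PU.1 are the textbook regulators of myeloid receptor genes. RefSeq promoters (GRCm38.p6, 250 bases before to 50 after the start) were matched for 52 of the 68 members. The C/EBP-like motif TTNNGCAA, read on both strands, was present in 13 of these 52 (25%), beside 12.2% of the 27025 genes with a RefSeq promoter and 10.2% of the 8822 of them that the authors tested. It was found in 1 of 7 matched genes that fell, Fcgr3, and in 10 of 24 that were tested and did not pass. The PU.1-like motif GAGGAAG, on both strands, was present in 22 of 52 members (42.3%), beside 15.4% of all such genes and 16.4% of those tested, in 4 of the 7 that fell and in 12 of the 24 that did not pass. The motifs share no match position in the sequences shown. These matches are descriptions of letters and not of binding, and a window without a match says nothing about either factor.

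The stretches that hold the matches are shown for the called genes that have one and, for contrast, for the most abundant tested genes that hold the C/EBP-like motif and did not pass, Clec4e and Clec12a. Capitals mark the motif matches, with CTTCCTC the reverse complement of the PU.1-like motif, and each stretch ends at or before the start of transcription. The coordinates are those of GRCm38.p6 and not of the deposited mm9 loci: Fcgr3 chr1:171059404-171059461 (minus strand), Fcgr4 chr1:171018873-171018925 (plus), Clec5a chr6:40585825-40585917 (minus), Cd33 chr7:43533361-43533421 (minus), Mrc1 chr2:14229216-14229413 (plus), Clec4e chr6:123289900-123289967 (minus) and Clec12a chr6:129350074-129350219 (plus).
Fcgr3 (fell): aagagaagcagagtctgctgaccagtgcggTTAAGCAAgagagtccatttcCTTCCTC
Fcgr4 (fell): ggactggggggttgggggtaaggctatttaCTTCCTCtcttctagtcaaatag
Clec5a (fell): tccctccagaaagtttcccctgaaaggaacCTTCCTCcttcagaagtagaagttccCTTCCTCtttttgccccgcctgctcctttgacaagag
Cd33 (fell): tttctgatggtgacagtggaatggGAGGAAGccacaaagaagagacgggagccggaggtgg
Mrc1 (rose): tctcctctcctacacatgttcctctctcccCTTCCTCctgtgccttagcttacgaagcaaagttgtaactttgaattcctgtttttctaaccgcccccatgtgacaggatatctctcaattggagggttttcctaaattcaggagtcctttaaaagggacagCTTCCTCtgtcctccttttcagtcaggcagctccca
Clec4e (did not pass): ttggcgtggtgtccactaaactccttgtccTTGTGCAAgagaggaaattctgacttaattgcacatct
Clec12a (did not pass): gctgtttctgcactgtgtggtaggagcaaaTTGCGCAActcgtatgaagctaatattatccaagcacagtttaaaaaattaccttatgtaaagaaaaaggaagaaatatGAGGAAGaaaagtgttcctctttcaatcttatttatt

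Fcgr3 alone among the fallen genes shown holds both motifs, with the C/EBP-like match beginning 28 bases before one of its RefSeq starts and 37 before the other. Clec12a also holds both, and its C/EBP-like match is a palindrome that reads the same on either strand. Fcgr3 had 70.1% of its vehicle level after 4OHT and Clec12a 76.7%, and only Fcgr3 passed.

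The signalling machinery below the receptors was examined with a list of 27 genes of ITAM and ITIM signalling, of which 25 were tested. Among these 2 rose, none fell and 23 did not pass, beside 2.8% of all tested rows that rose and 3.11% that fell. Fyn, a Src-family kinase, rose from 9.26 to 17.1 FPKM, and Lat2, an adaptor downstream of Fc receptors, rose from 96.3 to 147 FPKM. Their q in the authors' deposited table was 0.00165 and 0.0101. Fcer1g, the shared gamma chain of Fc receptors, was the most abundant, with 516 FPKM with vehicle and 654 FPKM with 4OHT, and its q in the authors' deposited table was 0.295. Syk had 33.4 and 35.6 FPKM, Ptpn6, the gene of SHP-1, 73.7 and 92.0 FPKM, and Card9, the adaptor below Dectin-1, 74.3 and 64.2 FPKM. The list's median log2 ratio was 0.09.

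Receptors of like function with other names were counted from a list of 29, of which 17 were tested. Of these 3 fell (17.6%) and none rose, beside 3.11% of all tested rows that fell and 2.8% that rose. Cd36, a scavenger receptor for oxidised lipids, fell from 5.72 to 2.58 FPKM, Cd200r1, an inhibitory receptor for CD200, from 49.0 to 30.7 FPKM, and Olr1, a lectin that takes up oxidised low-density lipoprotein, from 3.09 to 1.63 FPKM. Their q in the authors' deposited table was 0.00165, 0.00165 and 0.0111. Cd69 had 39.2 and 40.6 FPKM, and Cd200r4, the activating relative of Cd200r1, had 29.1 and 28.9 FPKM. The list's median log2 ratio was -0.01.

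**Figure D4:**
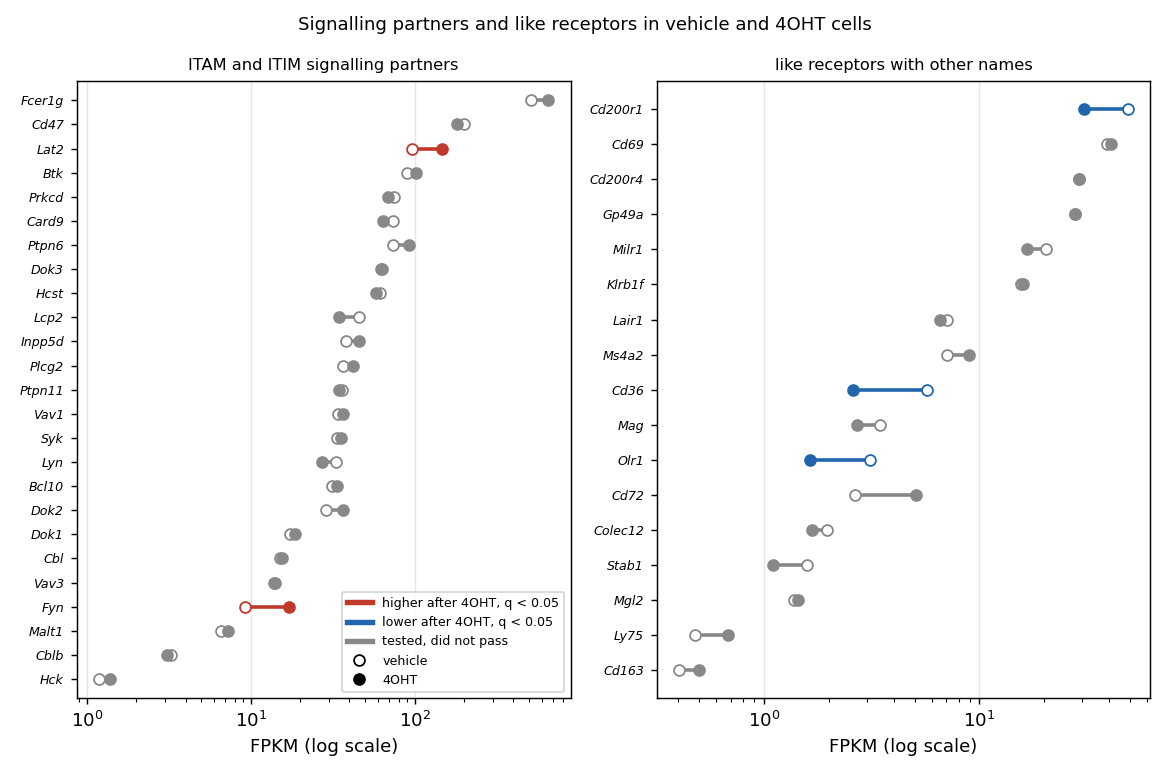
FPKM (log axis) in vehicle cells (open circles) and after 4OHT (filled circles), 1 value per condition, for 25 tested ITAM and ITIM signalling partners (left) and 17 tested like receptors with other names (right); red and blue mark genes called higher or lower in the authors' deposited table. Fyn and Lat2 are the red genes on the left, and Cd36, Cd200r1 and Olr1 the blue genes on the right.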

How the data were processed

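The authors deposited 1 table that gives each gene an FPKM value per condition, and per the file headers also a p-value with its q-value. CASAVA 1.8.2, Bowtie2 2.0.0.7 and Cuffdiff 2.0.2, with the build mm9, stand in the submitters' processing notes without their roles, and neither annotation nor strand is stated there. The deposited q equals a Benjamini-Hochberg adjustment of the deposited p-values over 11953 rows with status OK, to within 5.28e-07. Which test made those p-values is not known.

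Samples were grouped by the labelled treatment, 1 per condition, so the deposited q is the one test used. A call needs status OK and a deposited q under 0.05. A second deposited flag also requires 1.5-fold, which Fcgr3 alone of the called receptors misses. Log2 ratios use FPKM plus a pseudocount of 1. Receptor genes, lists and markers were chosen with earlier results of these data known. Every tested member was named. A search of protein motifs that had been planned was not run. Loci are mm9, written from 1. Promoters came from RefSeq by symbol, and the first bases after the start lay in a GENCODE transcript of that gene for 47 of 52. Alternatives covered the q threshold, filters, pseudocount and scaling. Values were computed with Python 3.11.15 and pandas 2.3.3, and the adjustment was tested on simulated data.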

Additional observations from a re-analysis of the deposited data

How the results depend on the processing

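The count of 9 falls ranged from 6, where a change of at least 2-fold was also required, to 9, and was 8 at q under 0.01, where Fcgr3 did not pass. The count of 2 rises was 3 at q under 0.10, where Clec10a joined, and 1 both among members of at least 1 FPKM and when p was adjusted over tested rows of at least 1 FPKM, which leave out Mrc1 by construction. The median log2 ratio of 0.05 lay between 0.02 and 0.06 over 6 alternatives of pseudocount, filter and scaling, and no tested member changed sign under the 4 pseudocount and scaling alternatives. No paired analysis was possible because each deposited sample joins both replicates, and for the same reason no replicate could be left out. Depth is unknown, so no counting interval can be given.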
